A study of Mus musculus with 8 samples.

Results

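Selp, Selplg, Cd44, Itga4, Itgb1 and Cxcr4 encode surface proteins with which blood cells and their progenitors attach to vessel walls and to marrow stroma, or follow a chemokine into the marrow. They were chosen for this role with earlier results of these data known and are 6 of the 27998 genes in the table, and all 6 were found in it.

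The study sequenced RNA of single KL cells, which are bone marrow cells sorted as CD117+ (the receptor c-Kit) and negative for the lineage markers CD3, CD4, CD8, CD45R, CD11b, TER119 and GR1. The mice were B6 females, 3-4 months old by the labels. SPF mice were kept under specific-pathogen-free conditions, and CVT mice had spent 1 month in a conventional facility, co-housed with conventionally born animals. By the labels each group had 10 mice (a caption of the study gives fewer), whose sorted cells were joined into 4 pools of 2 or 3 mice before sequencing, so the values of single mice cannot be read and the pool was taken as the replicate.

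The table held UMI counts (molecules counted by their identifier) of 29891 cells. SPF pools 1, 2, 7 and 8 held 1888, 3845, 2064 and 4534 cells with 19041749, 43194400, 19814800 and 49911524 UMIs, and the median cell had 7529.5, 9102, 7661 and 8459.5 UMIs. CVT pools 3, 4, 5 and 6 held 4845, 4176, 4341 and 4198 cells with 57567699, 59812346, 41901551 and 44600182 UMIs, and the median cell had 10206, 12771.5, 7775 and 8415.5 UMIs. SPF pools 1 and 7 were thus the shallowest by total, and CVT pools 3 and 4 had the deepest cells. Pools were assigned by the number that ends each cell name, taken as the number in the description of each sample, which the files do not state in words. By the mouse numbers in the labels, pools 1 to 4 held mice 1 to 10 and pools 5 to 8 held mice 11 to 20, with 2 pools of each housing group in each set. Of 29365 distinct cell barcodes, 522 occurred in more than 1 pool.

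The sort was checked against the transcripts of its markers. Kit had a UMI in 51.0% of the cells, while Cd3e, Cd4 and Cd8a had one in 24, 95 and 22 cells. Transcripts of Itgam (CD11b) were found in 9.39% of the cells and of Ly6g (part of GR1) in 6.07%. Myeloid transcripts were therefore present, while T cell transcripts were near 0. CD45R is a form of the product of Ptprc, found in 46.5% of the cells, and 3′ counts do not tell its forms apart.

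As background, homing of blood cells proceeds in steps. P-selectin (Selp), a lectin of platelets and activated endothelium, binds sugars on its ligand PSGL-1 (Selplg) and lets leukocytes roll along a vessel, and CD44 adds a grip on hyaluronan and on selectins. The integrin VLA-4, made of the alpha chain Itga4 and the beta chain Itgb1, then holds the cell to VCAM1 and fibronectin, and CXCR4 draws it toward CXCL12 from marrow stroma and keeps stem and progenitor cells in their niche.

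Selp, Cd44 and Cxcr4 are shown with the 250 bases before their start, because edgeR called these 3 of the 6 genes higher in pools 5 to 8 than in pools 1 to 4 of KL cells, where 10.5% of 13092 genes were called higher. Each of these calls ended when certain single pools were left out, and within single states the fold change of Selp was positive in some and negative in others, none of them called, as given below. The sequences were taken from RefSeq on GRCm38.p6, where 5 of the 6 genes were matched and Selplg was not. They lie at chr1:164115014-164115263 (plus strand), chr2:102901666-102901915 (minus strand) and chr1:128592300-128592549 (minus strand), and are printed 5′ to 3′ on the strand of the gene. Capitals mark the letters AGATAA or TTATCT, which GATA factors can bind, and GAGGAA or TTCCTC, which PU.1 can bind. The motifs were searched on both strands, and a GATA and a PU.1 motif can share no more than an end base.
Selp: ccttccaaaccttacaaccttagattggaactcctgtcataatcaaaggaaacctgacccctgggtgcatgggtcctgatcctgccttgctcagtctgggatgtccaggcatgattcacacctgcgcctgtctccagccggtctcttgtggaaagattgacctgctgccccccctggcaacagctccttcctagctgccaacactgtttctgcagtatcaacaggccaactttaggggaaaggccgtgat
Cd44: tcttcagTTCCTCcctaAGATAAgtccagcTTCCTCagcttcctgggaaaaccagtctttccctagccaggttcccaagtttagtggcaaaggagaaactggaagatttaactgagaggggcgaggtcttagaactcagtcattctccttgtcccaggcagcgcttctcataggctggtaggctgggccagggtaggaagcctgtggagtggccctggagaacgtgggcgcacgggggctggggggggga
Cxcr4: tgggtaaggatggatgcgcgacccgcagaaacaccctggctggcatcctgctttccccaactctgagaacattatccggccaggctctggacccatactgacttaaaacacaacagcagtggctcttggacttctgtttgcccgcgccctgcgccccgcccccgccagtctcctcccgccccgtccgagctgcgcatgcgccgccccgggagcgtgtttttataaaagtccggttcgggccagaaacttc
The window of Cd44 held 1 GATA match and 2 PU.1 matches, and the windows of Selp and Cxcr4 held none of these letters. Among 32851 windows of the same length before gene starts, 9.99% held a GATA motif and 23.3% a PU.1 motif. A match is a description of the letters, and whether any factor bound there was not measured.

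Cells were grouped without the 6 genes and without the other adhesion genes, so that the clusters were formed without them. Of the 35 clusters, 33 were named from marker lists, while 2 clusters with 510 cells stayed unnamed. The adhesion genes were not kept out of the naming, for Fn1 was among the monocyte markers and Cd74 among the dendritic markers. Of the named states, 11 had at least 10 cells in every pool. They were 2790 LTHSC-like (long-term stem cell), 1318 MPP-like (multipotent), 3806 LMPP-like (lymphoid-primed), 477 CMP-like (common myeloid) and 2349 Mk-like (megakaryocyte) cells, 6080 early and 2498 committed erythroid-like cells, 888 basophil or mast-like, 2910 GMP-like (granulocyte-monocyte), 4382 monocyte-like and 1587 late granulocyte-like cells. Median depth ran from 5827.5 UMIs per cell in basophil or mast-like to 25152 in committed erythroid-like cells. A level is the UMIs of a gene over the UMIs of all genes in the summed cells of 1 state and 1 pool, in CPM, given as mean and SD over the 8 pools. Differences between states are descriptions without a test, with the number of pools in which a state lay above the next in order. A step was taken to be within the spread when the order did not hold in all 8 pools.

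**Figure D1:**
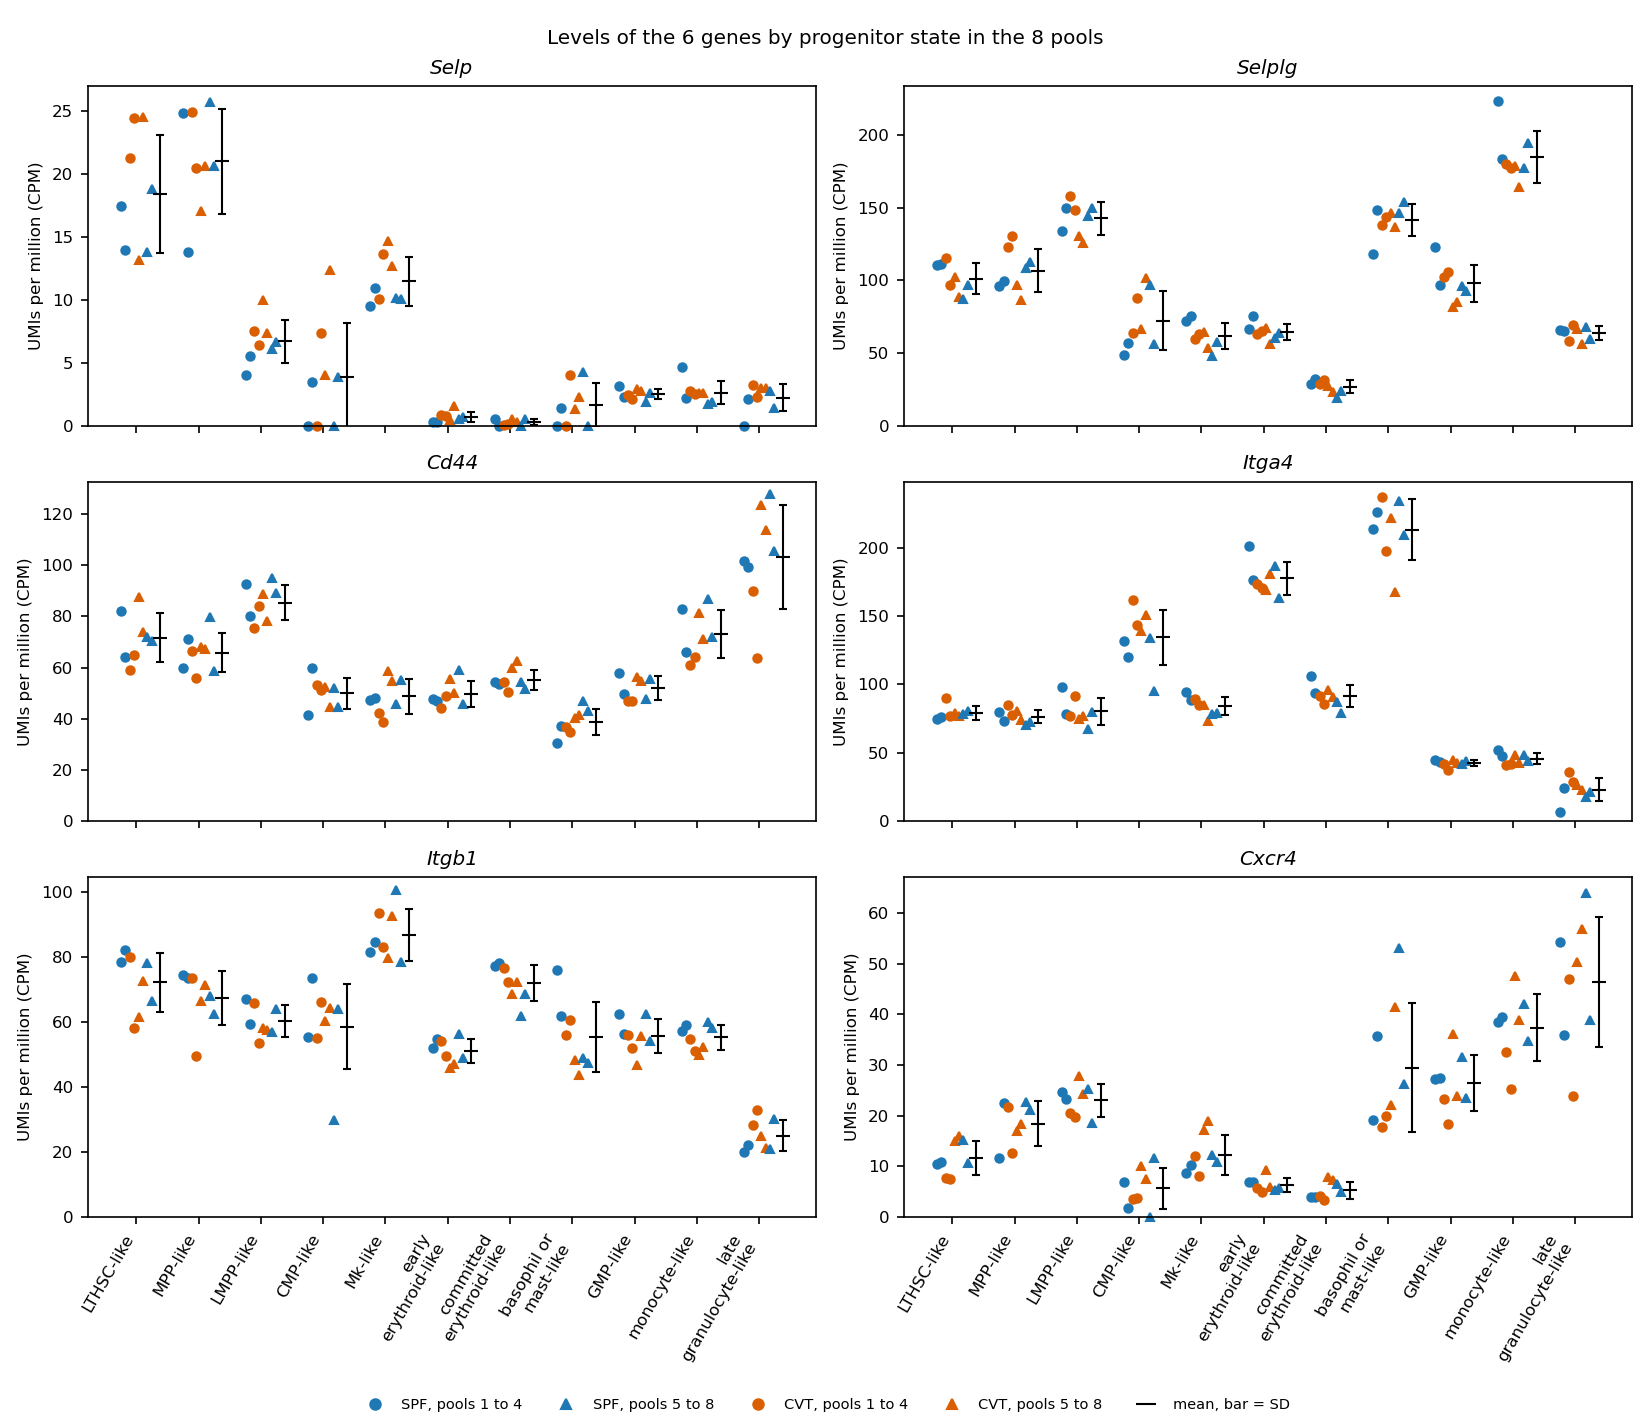
Level of each gene (CPM) in the 11 states, with a point for each of the 8 pools and the mean and SD over pools. Selp peaks in MPP-like and LTHSC-like cells, Selplg in monocyte-like, Itga4 in basophil or mast-like and early erythroid-like, Itgb1 in Mk-like, and Cd44 and Cxcr4 in late granulocyte-like cells.

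Selp, whose product binds PSGL-1, was highest in MPP-like cells at 21.0 CPM ± 4.15 (SD, n = 8) and in LTHSC-like cells at 18.4 CPM ± 4.66, followed by Mk-like cells at 11.4 CPM ± 1.94 and LMPP-like cells at 6.69 CPM ± 1.73. MPP-like cells were 1 cluster, which was not found as a class at resolution 1, with the adhesion genes kept or with the 92 cells called by Scrublet removed, and LTHSC-like cells then had 18.2, 18.6 and 18.6 CPM. MPP-like cells lay above LTHSC-like cells in 5 of 8 pools, so these neighbours did not differ beyond their spread, and LTHSC-like cells lay above Mk-like cells in 7 of 8. Mk-like cells lay above LMPP-like cells in 8 of 8 pools. The level was 3.88 CPM ± 4.30 in CMP-like, 2.62 CPM ± 0.907 in monocyte-like, 2.52 CPM ± 0.410 in GMP-like and 2.22 CPM ± 1.07 in late granulocyte-like cells. It was lowest in basophil or mast-like (1.65 CPM ± 1.73), early erythroid-like (0.673 CPM ± 0.424) and committed erythroid-like cells (0.256 CPM ± 0.236). None of the lower steps held in more than 6 of 8 pools, and the whole order had no step at which the ranges of neighbours were apart. Counts were few at the low end, with 15 UMIs in CMP-like cells of all pools together, 10 in basophil or mast-like and 14 in committed erythroid-like cells, against 326 in LTHSC-like and 230 in MPP-like cells.

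Within states Selp also varied. Of the 3 clusters of Mk-like cells, the level ranged from 8.95 CPM ± 3.32 in 1183 cells to 18.4 CPM ± 3.74 in 614 cells, and of the 3 LMPP-like clusters from 2.58 CPM ± 1.44 in 2001 cells to 12.01 CPM ± 3.85 in 963 cells. These clusters were found without Selp, and the values are means over the 8 pools.

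With every cell thinned to 2759 UMIs, Selp had a UMI in 5.16% (95% Wilson interval 4.09 to 6.49%) of MPP-like and 4.84% (95% Wilson interval 4.10 to 5.70%) of LTHSC-like cells. Erythroid cells should lack it, and the share was 0.148% (95% Wilson interval 0.0779 to 0.281%) in early and 0.200% (95% Wilson interval 0.0855 to 0.468%) in committed erythroid-like cells. With all UMIs the shares were 14.8% and 9.93% against 0.526% and 0.520%, at median depths of 8350.5 and 5969.5 against 6325 and 25152 UMIs. Over the 8 pools the thinned shares ran from 3.88 to 7.96% in MPP-like and from 1.73 to 7.76% in LTHSC-like cells, and from 0 to 0.262% and from 0 to 0.662% in early and committed erythroid-like cells, so both were above this background at equal depth in every pool. So was the Mk-like share of 3.49% (95% Wilson interval 2.82 to 4.31%), which ran from 2.47 to 5.68% over pools. In basophil or mast-like cells the share of 0.338% (95% Wilson interval 0.115 to 0.989%) overlapped the background. The ranges over pools of CMP-like (0 to 1.61%), GMP-like (0.277 to 2.19%), monocyte-like (0 to 1.12%) and late granulocyte-like cells (0 to 1.52%) overlapped it too. That of LMPP-like cells (1.19 to 3.14%) lay above it.

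Selplg, the ligand of P-selectin, was highest in monocyte-like cells at 185 CPM ± 17.6 (SD, n = 8), above the next state in 8 of 8 pools with ranges apart. LMPP-like cells (143 CPM ± 11.3) and basophil or mast-like cells (142 CPM ± 10.99) followed and lay on either side of each other in 4 pools each. Basophil or mast-like cells lay above MPP-like cells in 8 of 8 pools. MPP-like (107 CPM ± 14.9), LTHSC-like (101 CPM ± 10.6) and GMP-like cells (98.1 CPM ± 12.7) did not differ beyond their spread, and GMP-like cells lay above CMP-like cells in 6 of 8 pools. Nor was there a step beyond the spread among CMP-like (72.3 CPM ± 20.3), early erythroid-like (64.6 CPM ± 5.59), late granulocyte-like (63.7 CPM ± 4.92) and Mk-like cells (61.7 CPM ± 9.17). Committed erythroid-like cells were lowest at 26.8 CPM ± 4.59, below Mk-like cells in 8 of 8 pools with ranges apart.

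Among the 4 clusters of monocyte-like cells, the one of 587 cells led by Lgals3 had 407 CPM ± 90.1 of Selplg, and the other 3 had 174 CPM ± 21.2, 169.6 CPM ± 14.5 and 154 CPM ± 18.1. States with few cells were summed over pools, without a spread. Selplg reached 732 CPM (95% Poisson interval 656 to 813) in 80 dendritic-like cells and 381 CPM (95% Poisson interval 314 to 457) in 49 T or NK-like cells, both above every mean of the 11 larger states. The share of thinned cells with a Selplg UMI was 39.5% (95% Wilson interval 38.02 to 40.9%) in monocyte-like and 6.73% (95% Wilson interval 5.81 to 7.78%) in committed erythroid-like cells, the lowest state. Without thinning it was 88.2% and 45.3%, at median depths of 14988.5 and 25152 UMIs. No state is known to lack Selplg, so no background could be set for it.

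Of the 11 states, Cd44, the hyaluronan receptor, was highest in late granulocyte-like cells. They had 103 CPM ± 20.3 (SD, n = 8) and lay above LMPP-like cells (85.4 CPM ± 7.02) in 7 of 8 pools, and LMPP-like cells lay above monocyte-like cells (73.2 CPM ± 9.48) in 8 of 8. Monocyte-like, LTHSC-like (71.7 CPM ± 9.49) and MPP-like cells (65.9 CPM ± 7.78) did not differ beyond their spread, and MPP-like cells lay above committed erythroid-like cells (55.2 CPM ± 4.07) in 8 of 8 pools. From there to the last but one state no step held in more than 6 of 8 pools, across GMP-like (52.0 CPM ± 4.55), CMP-like (50.0 CPM ± 5.99), early erythroid-like (49.8 CPM ± 5.12) and Mk-like cells (48.8 CPM ± 6.82). Basophil or mast-like cells were lowest at 38.9 CPM ± 5.12, below Mk-like cells in 7 of 8 pools. No step in this order had ranges apart.

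The highest pool of late granulocyte-like cells, SPF pool 7, had 128 CPM of Cd44 and the lowest, CVT pool 4, 63.7 CPM. The Lgals3 cluster of monocyte-like cells had 141 CPM ± 21.0, above the largest of the late granulocyte-like clusters (132 CPM ± 28.7 in 760 cells). Cd44 was found in 29.2% (95% Wilson interval 27.0 to 31.5%) of thinned late granulocyte-like and 10.4% (95% Wilson interval 8.52 to 12.5%) of thinned basophil or mast-like cells, and in 57.7% and 22.7% with all UMIs, at median depths of 6960 and 5827.5. Every state had a share of at least 10.4%, so none served as a background without the gene. Summed over pools, the 80 dendritic-like cells had 139 CPM (95% Poisson interval 107 to 177) of Cd44.

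Itga4, the alpha chain of VLA-4, was highest in basophil or mast-like cells at 213 CPM ± 22.5 (SD, n = 8) and in early erythroid-like cells at 178 CPM ± 11.99, the former above the latter in 7 of 8 pools. CMP-like cells had 135 CPM ± 20.1, below early erythroid-like cells in 8 of 8 pools with ranges apart, and lay above committed erythroid-like cells (91.4 CPM ± 7.97) in 8 of 8. The cells named CMP-like changed with the clustering, as given below. Committed erythroid-like cells lay above Mk-like cells in 8 of 8 pools, by a mean of 7.11 CPM. Mk-like (84.3 CPM ± 6.90), LMPP-like (80.5 CPM ± 9.81), LTHSC-like (79.2 CPM ± 4.82) and MPP-like cells (76.6 CPM ± 4.95) did not differ beyond their spread. The fall to monocyte-like cells (45.7 CPM ± 3.90) held in 8 of 8 pools with ranges apart, GMP-like cells (42.6 CPM ± 2.37) lay below these in 7 of 8, and late granulocyte-like cells were lowest at 23.1 CPM ± 8.35, again with ranges apart.

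Early erythroid-like cells were not uniform in Itga4, for of the 3 largest clusters those of 1611 and 1876 cells had 226 CPM ± 22.8 and 219 CPM ± 9.17, and that of 1775 cells had 157 CPM ± 15.1. Thinned cells had an Itga4 UMI in 43.9% (95% Wilson interval 40.7 to 47.2%) of basophil or mast-like, 40.9% (95% Wilson interval 39.7 to 42.2%) of early erythroid-like and 5.67% (95% Wilson interval 4.64 to 6.92%) of late granulocyte-like cells, the lowest state. With all UMIs these shares were 69.7%, 72.3% and 14.5%, at median depths of 5827.5, 6325 and 6960. Late granulocyte-like cells had the lowest share although they were the deepest of the 3. An unnamed cluster of 92 cells, led by Ccl5, had 439 CPM ± 91.7 of Itga4, above all 11 states.

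Of the 11 states, Itgb1, the beta chain of VLA-4 and of other integrins, was highest in Mk-like cells at 86.9 CPM ± 7.91 (SD, n = 8), above LTHSC-like cells (72.3 CPM ± 9.14) in 8 of 8 pools. LTHSC-like, committed erythroid-like (72.1 CPM ± 5.60), MPP-like (67.5 CPM ± 8.34), LMPP-like (60.4 CPM ± 4.81), CMP-like (58.6 CPM ± 13.1), GMP-like (55.8 CPM ± 5.21), basophil or mast-like (55.4 CPM ± 10.7) and monocyte-like cells (55.3 CPM ± 3.84) formed a slope in which no step held in all pools, the clearest being committed erythroid-like above MPP-like cells in 7 of 8. Monocyte-like cells lay above early erythroid-like cells (51.1 CPM ± 3.82) in 8 of 8 pools. Late granulocyte-like cells were lowest at 25.1 CPM ± 4.84, below early erythroid-like cells in 8 of 8 pools with ranges apart. The alpha and the beta chain thus shared their lowest state but not their highest. In thinned cells Itgb1 was found in 21.4% (95% Wilson interval 19.8 to 23.1%) of Mk-like and 4.98% (95% Wilson interval 4.01 to 6.16%) of late granulocyte-like cells, and with all UMIs in 49.9% and 17.3%, at median depths of 8284 and 6960. Summed over pools, the 49 T or NK-like cells had 113 CPM (95% Poisson interval 78.0 to 157) of Itgb1. No state should lack Itga4 or Itgb1, so neither had a background.

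Cxcr4, the receptor of CXCL12, was highest in late granulocyte-like cells at 46.4 CPM ± 12.9 (SD, n = 8), followed by monocyte-like (37.4 CPM ± 6.65), basophil or mast-like (29.5 CPM ± 12.8), GMP-like (26.4 CPM ± 5.52), LMPP-like (23.0 CPM ± 3.19) and MPP-like cells (18.4 CPM ± 4.397). Each of these steps held in 5 or 6 of 8 pools, so neighbours did not differ beyond their spread, while late granulocyte-like cells lay above MPP-like cells in 8 of 8. MPP-like cells lay above Mk-like cells in 6 of 8. Mk-like (12.3 CPM ± 3.90) and LTHSC-like cells (11.7 CPM ± 3.35) did not differ either, and LTHSC-like cells lay above early erythroid-like cells (6.31 CPM ± 1.36) in 8 of 8 pools. CMP-like (5.63 CPM ± 4.08) and committed erythroid-like cells (5.24 CPM ± 1.74) closed the order within the spread. MPP-like cells thus had more Cxcr4 per UMI than LTHSC-like cells, in 8 of 8 pools.

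Cxcr4 was found in 14.4% (95% Wilson interval 12.7 to 16.2%) of thinned late granulocyte-like cells, 3.19% (95% Wilson interval 2.60 to 3.91%) of LTHSC-like and 1.88% (95% Wilson interval 1.42 to 2.49%) of committed erythroid-like cells. Without thinning the shares were 33.2%, 6.99% and 10.2%, at median depths of 6960, 5969.5 and 25152 UMIs. Committed erythroid-like cells, the state lowest in CPM, were taken as a reference. That they lack Cxcr4 was not shown, for a cluster of 133 of them, led by Hba-a1, had 17.3 CPM ± 10.8. Over the 8 pools the thinned share was 3.06% ± 1.27 (SD, n = 8, 0.727 to 4.88%) in LTHSC-like and 2.09% ± 1.19 (0.366 to 4.41%) in committed erythroid-like cells, so the shares of LTHSC-like cells were not set apart from this reference at equal depth, although their level in CPM lay above it in 8 of 8 pools. In early erythroid-like cells the share was 1.40% (95% Wilson interval 1.13 to 1.73%), or 4.82% with all UMIs, at a median depth of 6325. The shares of Mk-like cells, 2.85% (95% Wilson interval 2.25 to 3.61%), and of CMP-like cells, 1.68% (95% Wilson interval 0.852 to 3.27%), ran over pools from 1.72 to 4.46% and from 0 to 4.55% and were not set apart from it either, while the level in CPM lay above that of committed erythroid-like cells in 8 of 8 pools for Mk-like and in 5 of 8 for CMP-like cells.

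**Figure D2:**
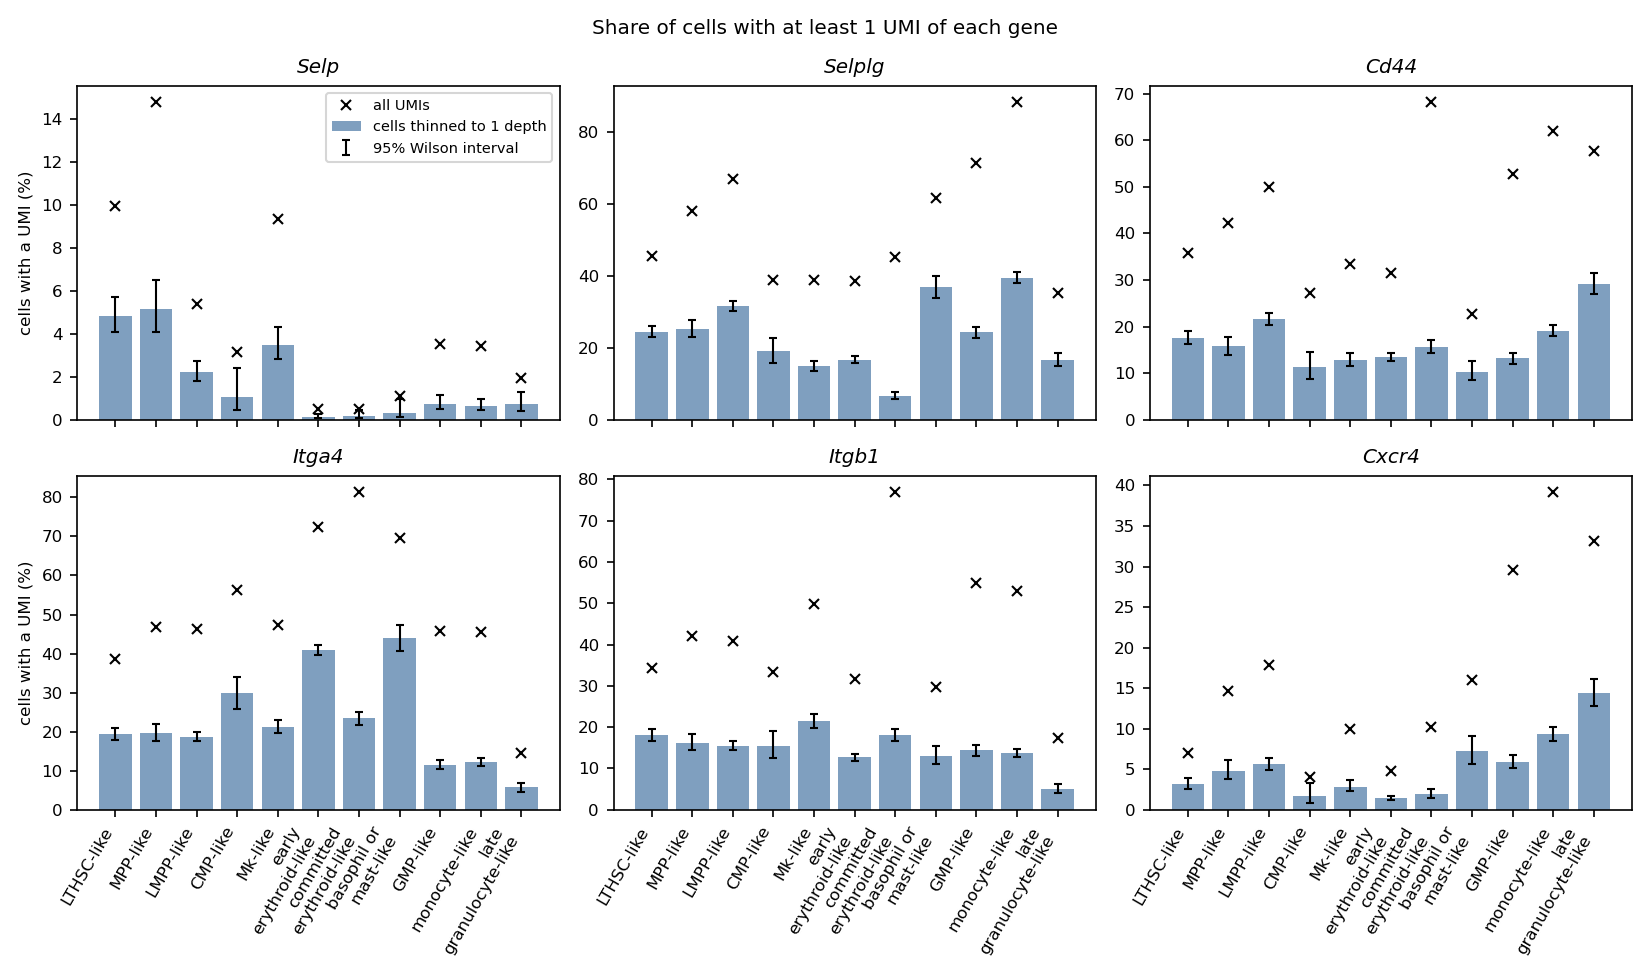
Share of cells with at least 1 UMI of each gene (%) by state, with bars for cells thinned to 2759 UMIs, 95% Wilson intervals, and crosses for all UMIs. Crosses lie far above bars where cells are deep, as in committed erythroid-like cells, where Itga4 goes from 23.4% to 81.5%.

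Counted per cell instead of per UMI of all genes, the highest state changed for 4 genes. Committed erythroid-like cells, which hold the most UMIs, then had the most Cd44 (1.29 ± 0.0960 UMIs per cell, SD over 8 pools), Itga4 (2.13 ± 0.243) and Itgb1 (1.69 ± 0.270). Cxcr4 was then highest in monocyte-like cells (0.541 ± 0.0715), while Selp stayed highest in MPP-like (0.183 ± 0.0354) and Selplg in monocyte-like cells (2.70 ± 0.306). Whether deeper cells held more RNA or were captured better was not tested.

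**Figure D3:**
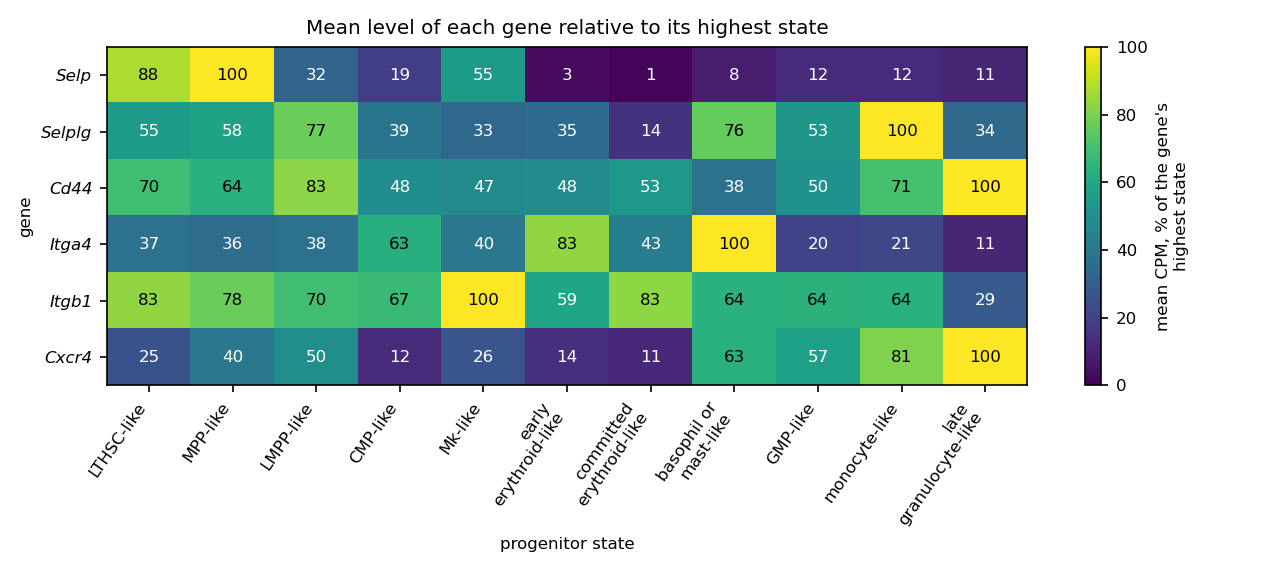
Mean level of each gene (CPM over 8 pools) in each state as a percentage of that gene's highest state. LTHSC-like cells hold 87.7% of the highest level of Selp, and late granulocyte-like cells are lowest for both integrin chains.

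LTHSC-like cells fell into a cluster of 1231 cells with more Procr (74.1 CPM ± 19.6) and another of 1559 cells with less (20.1 CPM ± 2.55), Procr being a marker of stem cells. Selplg was lower in the former (91.3 CPM ± 9.43 against 108 CPM ± 11.7) and so was Cd44 (63.6 CPM ± 16.3 against 76.2 CPM ± 10.5), each in 8 of 8 pools. Selp (15.9 CPM ± 4.48 against 19.4 CPM ± 5.50), Itga4 (76.5 CPM ± 9.74 against 82.2 CPM ± 6.68) and Cxcr4 (9.20 CPM ± 5.09 against 13.3 CPM ± 4.61) were higher in the former in 3 of 8 pools each, and Itgb1 (74.1 CPM ± 10.7 against 72.5 CPM ± 11.3) in 5 of 8. These 4 genes did not differ beyond the spread over pools.

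The genes with the most similar pattern were sought among 6770 genes with at least 20 CPM in a state, by Pearson r over the 11 states of log2 mean CPM, a description with no p since states share the pools. For Selp they were Mdfi (r = 0.938), Casp12 (r = 0.937) and Efcc1 (r = 0.924), and for Selplg Gm9844 (r = 0.955), Cd69 (r = 0.940) and Casp1 (r = 0.933). Cd44 had the least close ones, Cd33 (r = 0.875), AA467197 (r = 0.870) and Lyst (r = 0.869). For Itga4 they were 4921524J17Rik (r = 0.977), Pbx4 (r = 0.972) and Upf3b (r = 0.969), for Itgb1 Dynll2 (r = 0.977), Ngfrap1 (r = 0.968) and Cln6 (r = 0.962), and for Cxcr4 Gm26740 (r = 0.950), Tyrobp (r = 0.942) and Fcer1g (r = 0.941). All 3 genes nearest to Selp were highest in LTHSC-like cells, those nearest to Itgb1 in Mk-like cells, and those nearest to Cd44 and Cxcr4 in late granulocyte-like cells.

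Among the 15 pairs of the 6 genes, r ran from -0.752 for Cd44 and Itga4 to 0.646 for Selplg and Cxcr4. The chains of VLA-4, Itga4 and Itgb1, had an r of 0.480, and Selp and its ligand Selplg an r of 0.375. With 11 states, these values describe the patterns only. In thinned cells, a mean of 0.850 of the 6 genes had a UMI in a KL cell, from 0.659 in committed erythroid-like to 1.12 in basophil or mast-like cells. At least 3 of the 6 were found in 3.60% of KL cells and none in 38.8%.

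CVT pools, from mice exposed in a conventional facility, were compared with SPF pools. UMI sums per pool were tested with edgeR over all genes and adjusted over all genes tested, in all KL cells and in 4 populations. In sums of KL cells, fewer cells of a type and less RNA per cell cannot be told apart. GMP-like cells made up 7.26, 7.02, 6.35 and 8.23% of the cells in SPF pools 1, 2, 7 and 8 and 12.8, 14.2, 8.32 and 10.2% in CVT pools 3, 4, 5 and 6, so every CVT pool was above every SPF pool. The class depended on the clustering. At resolution 1 clusters of 2350, 1994, 1807 and 1076 cells were named GMP-like, beside 2910 cells here, and their shares by pool were not compared. The 12 GMP markers, with Elane the most abundant and none at 0, had a summed level of 4766, 5214, 5322 and 5881 CPM in the SPF and 7351, 7892, 5473 and 6450.2 CPM in the CVT pools, where CVT pool 5 lay under SPF pool 8 and the groups overlapped. None of these markers was called for housing by edgeR, and their part in the results was not tested.

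In KL cells, Selp had 4.04, 3.73, 4.69 and 5.07 CPM in SPF pools 1, 2, 7 and 8 and 3.49, 3.64, 5.01 and 5.202 CPM in CVT pools 3, 4, 5 and 6. Selplg had 107, 108, 107 and 105 CPM in SPF pools 1, 2, 7 and 8 and 98.1, 103, 98.2 and 92.7 CPM in CVT pools 3, 4, 5 and 6. Cd44 had 65.0, 59.6, 75.8 and 63.8 CPM in SPF pools 1, 2, 7 and 8 and 54.9, 55.3, 71.9 and 66.7 CPM in CVT pools 3, 4, 5 and 6. Within each housing group, pools 5 to 8 had more Selp than pools 1 to 4, so the groups overlapped. Selplg was lower in every CVT pool than in every SPF pool, and Cd44 was highest in SPF pool 7 and lowest in CVT pools 3 and 4, with overlap. Itga4 had 103, 93.2, 87.0 and 80.5 CPM in SPF pools 1, 2, 7 and 8 and 87.3, 80.8, 86.7 and 80.1 CPM in CVT pools 3, 4, 5 and 6. Itgb1 had 64.1, 64.1, 59.2 and 59.9 CPM in SPF pools 1, 2, 7 and 8 and 63.7, 58.3, 54.3 and 58.7 CPM in CVT pools 3, 4, 5 and 6. Cxcr4 had 18.5, 19.3, 27.5 and 18.5 CPM in SPF pools 1, 2, 7 and 8 and 16.8, 13.9, 26.3 and 23.7 CPM in CVT pools 3, 4, 5 and 6. For these 3 genes the groups overlapped too, and SPF pool 1 was the highest for Itga4 and SPF pool 7 for Cxcr4.

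The log2 fold change of CVT over SPF in KL cells was 0.025 (SE 0.164) for Selp, -0.073 (SE 0.0521) for Selplg and -0.038 (SE 0.106) for Cd44. It was -0.067 (SE 0.0687) for Itga4, -0.022 (SE 0.0594) for Itgb1 and -0.0091 (SE 0.208) for Cxcr4, whose sign turned positive with RLE size factors (0.00050) and with DESeq2 (0.00042). None of the 6 genes was called by edgeR at an adjusted p of 0.05, nor was any of 13092 genes (0%), and 921 genes had an unadjusted p under 0.05. DESeq2 called 15 genes, and edgeR with a block for the pool sets called 4, with 1777 at an unadjusted p under 0.05, and none of the 6 was among these. The lowest adjusted p of the 6 in edgeR was 0.787 without the block and 0.523 with it, both for Selplg, and an adjusted p over the threshold does not show that there was no difference.

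Within pools 1 to 4, Selplg averaged 100.4 CPM in CVT and 107 in SPF pools, and within pools 5 to 8 95.5 and 106 CPM, the same direction in both. It was the only one of the 6 with all CVT pools on 1 side of all SPF pools, where 6.16% of 13092 genes were so placed in either direction. Itgb1 had both CVT pools below both SPF pools in each set, with means of 61.0 against 64.1 CPM in pools 1 to 4 and 56.5 against 59.6 CPM in pools 5 to 8, so its overlap arose between the sets. Both CVT pools were below both SPF pools for all 6 genes in pools 1 to 4, as held for 41.9% of 13092 genes, and for Selplg and Itgb1 alone of the 6 in pools 5 to 8, as held for 24.0% of genes. Selp moved in opposite directions, with 3.57 CPM in CVT against 3.89 CPM in SPF pools among pools 1 to 4 and 5.11 against 4.88 CPM among pools 5 to 8, where the groups overlapped. So did Cxcr4, with 15.3 against 18.9 CPM in pools 1 to 4 and 24.999 against 23.0 CPM in pools 5 to 8. For Cxcr4 the interaction of housing and pool set was 0.39 on the log2 scale (SE 0.238, edgeR adjusted p 0.605). None of the 6 was called for this interaction in edgeR, the one tool used for it, and no other gene was (0%), with 1188 of 13092 genes at an unadjusted p under 0.05.

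**Figure D4:**
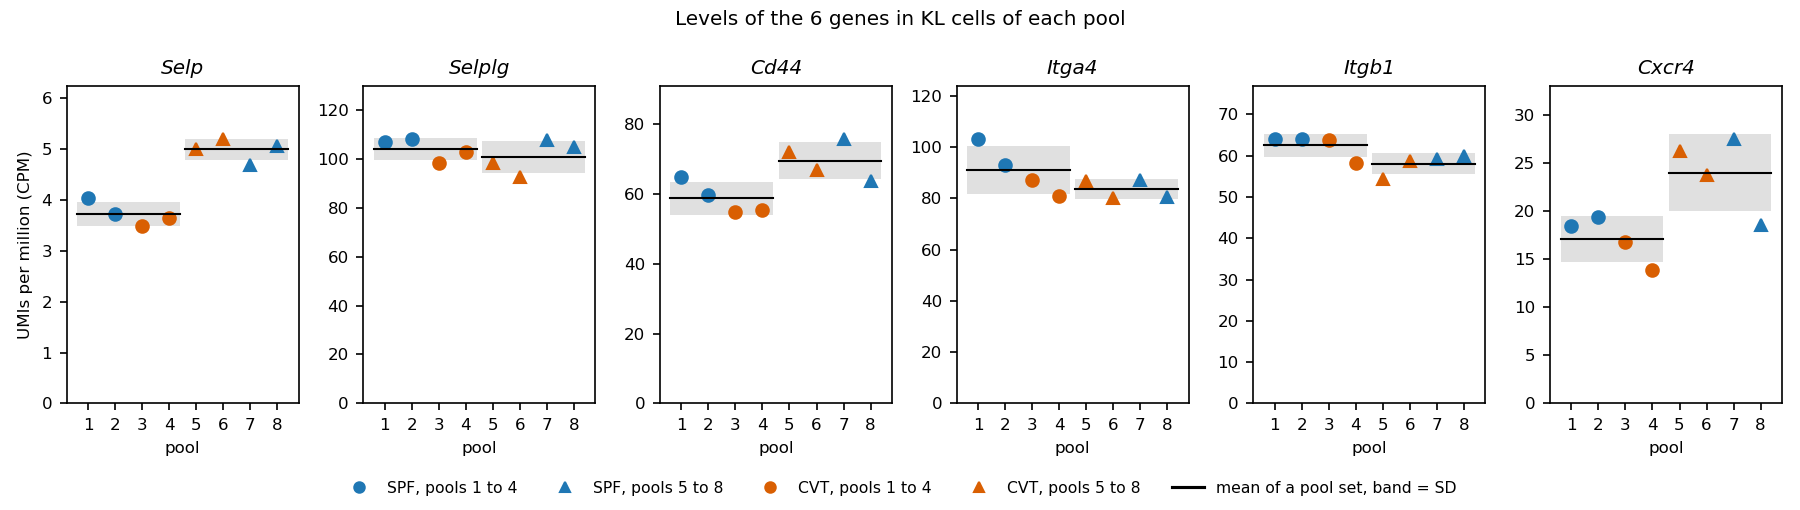
Level of each gene (CPM) in KL cells of each of the 8 pools, coloured by housing group, with pools 1 to 4 and 5 to 8 marked apart. Selp, Cd44 and Cxcr4 are mostly higher in pools 5 to 8, while Selplg is lower in each CVT pool than in any SPF pool.

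Of the housing differences in the 4 populations tested besides KL cells, the largest of the 6 genes were those of Selp in LMPP-like and LTHSC-like cells. In GMP-like cells the log2 fold change of Selp was 0.053 (SE 0.272), smaller in size than that of Itgb1 (-0.097). In LMPP-like cells Selp had 4.02, 5.52, 6.05 and 6.64 CPM in SPF pools 1, 2, 7 and 8 and 7.496, 6.40, 9.99 and 7.38 CPM in CVT pools 3, 4, 5 and 6, a log2 fold change of 0.46 (SE 0.204, edgeR adjusted p 0.925). The CVT pools were mostly the higher ones, but SPF pool 8 exceeded CVT pool 4, so the groups overlapped. Both CVT pools lay above both SPF pools in each pool set, so this overlap arose between the sets. The share of all genes so placed was not computed in LMPP-like cells. In KL cells both CVT pools lay above both SPF pools for 14.6% of 13092 genes in pools 1 to 4 and for 11.8% in pools 5 to 8. Within pools 1 to 4 CVT pools averaged 6.95 and SPF pools 4.77 CPM, and within pools 5 to 8 8.69 and 6.35 CPM.

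In LTHSC-like cells Selp had 17.4, 13.9, 13.8 and 18.8 CPM in SPF pools 1, 2, 7 and 8 and 21.2, 24.4, 13.1 and 24.5 CPM in CVT pools 3, 4, 5 and 6, a log2 fold change of 0.37 (SE 0.197, edgeR adjusted p 0.926). CVT pool 5 was the lowest of all 8, and CVT pools 3, 4 and 6 were the highest. Within pools 1 to 4 the means were 22.8 CPM in CVT and 15.7 CPM in SPF, and within pools 5 to 8 18.8 and 16.3 CPM with overlap. Selp thus did not pass the test in either state, although its fold change stayed positive with each pool left out, from 0.33 to 0.57 in LMPP-like and from 0.25 to 0.57 in LTHSC-like cells.

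None of the 6 genes was called in LTHSC-like, LMPP-like, GMP-like or erythroid-like cells by edgeR, where 0% of 9404, 0% of 10490, 0% of 9934 and 0% of 10952 genes were. At an unadjusted p under 0.05 there were 493, 552, 501 and 754 genes, and DESeq2 called 0, 2, 0 and 2. With a block for the pool sets edgeR called 0, 4, 2 and 0 genes, and without the filter on low counts 40, 32, 35 and 1, and none of the 6 was among them. Besides Selp, the fold changes of the members lay between -0.14 (Selplg in erythroid-like cells) and 0.14 (Cxcr4 in LTHSC-like cells) on the log2 scale in these 4 populations. Selp had too few counts to be tested in erythroid-like cells. Leaving out CVT pool 6 gave 1 gene called in LTHSC-like and 5 in GMP-like cells, and leaving out SPF pool 8 gave 1 in LMPP-like cells.

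Over the 11 states, all CVT pools lay on 1 side of all SPF pools for 2 members, each in 1 state, while this held for 3.68% of 97205 pairs of a gene and a state. In CMP-like cells Itga4 had 132, 120.1, 134 and 95.3 CPM in SPF pools 1, 2, 7 and 8 and 161, 143, 139 and 151 CPM in CVT pools 3, 4, 5 and 6. Every CVT pool was above every SPF pool, with means of 149 CPM ± 9.85 (SD, n = 4) in CVT and 120.4 CPM ± 17.8 in SPF pools. In monocyte-like cells Itgb1 had 57.4, 59.0, 59.98 and 58.1 CPM in SPF pools 1, 2, 7 and 8 and 54.9, 51.0, 50.0 and 52.4 CPM in CVT pools 3, 4, 5 and 6. Every CVT pool was below every SPF pool, with means of 52.1 CPM ± 2.12 (SD, n = 4) in CVT and 58.6 CPM ± 1.11 in SPF pools. Both states were outside the tested populations, and these were 2 of 60 pairs of a member and a state with enough counts. The CMP-like class was 1 cluster of 477 cells led by Pf4. It was not found at resolution 1, and with the adhesion genes kept its name fell on a cluster of 1824 cells led by Gm15915. At resolution 1 the monocyte-like name fell on clusters of 1882 and 587 cells, beside 4382 cells here. Whether the groups were apart under those clusterings was not tested.

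**Figure D5:**
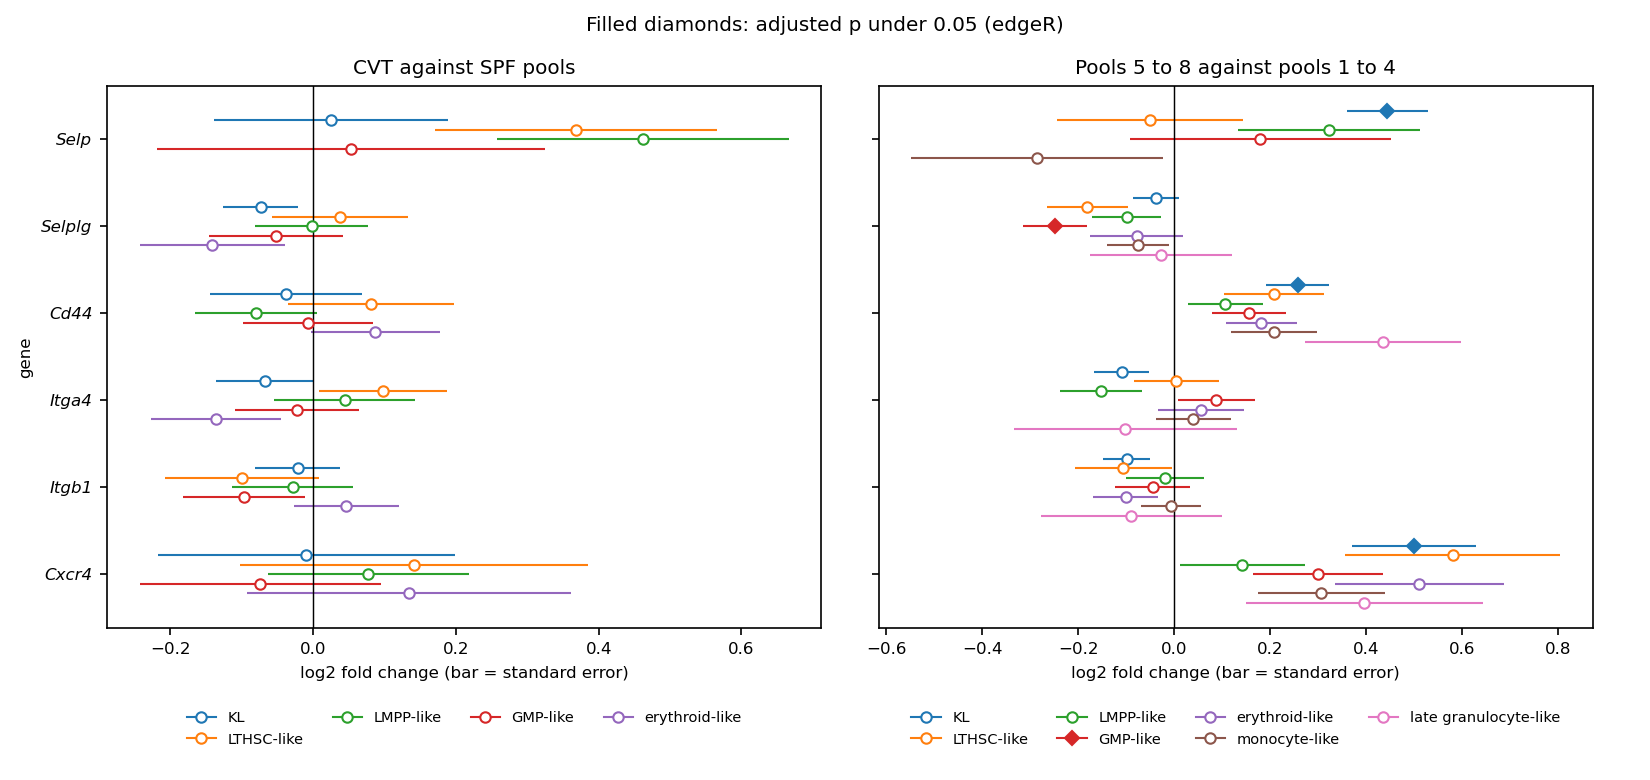
Log2 fold change with its standard error for each gene and population, CVT against SPF pools on the left and pools 5 to 8 against pools 1 to 4 on the right. No member passes an edgeR adjusted p of 0.05 for housing, and 4 filled diamonds mark those that pass for the pool sets, Selp, Cd44 and Cxcr4 in KL cells and Selplg in GMP-like cells.

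The pools were also compared by set. The labels do not say whether the sets were sorted or sequenced on separate days, so the set is used here only as a grouping by mouse number. Between pools 5 to 8 and pools 1 to 4, with housing in the fit, edgeR called 2646 of 13092 genes in KL cells (20.2%), and among the 6 it called Selp, Cd44 and Cxcr4, all higher in pools 5 to 8, as were 1373 genes (10.5%). Selp had 4.04, 3.73, 3.49 and 3.64 CPM in pools 1 to 4 and 5.01, 5.202, 4.69 and 5.07 CPM in pools 5 to 8, means of 3.73 CPM ± 0.233 in pools 1 to 4 and 4.99 CPM ± 0.216 in pools 5 to 8 (SD, n = 4), and a log2 fold change of 0.44 (SE 0.0841, edgeR adjusted p 0.0136). Every pool of the later set was above every pool of the earlier one, as held in either direction for 19.3% of genes. No other member had its sets apart in KL cells.

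Cd44 had 65.0, 59.6, 54.9 and 55.3 CPM in pools 1 to 4 and 71.9, 66.7, 75.8 and 63.8 CPM in pools 5 to 8, and its log2 fold change was 0.26 (SE 0.0649, edgeR adjusted p 0.0254). Pool 8 lay under pool 1, so the sets overlapped. Cxcr4 had 18.5, 19.3, 16.8 and 13.9 CPM in pools 1 to 4 and 26.3, 23.7, 27.5 and 18.5 CPM in pools 5 to 8, and its log2 fold change was 0.50 (SE 0.129, edgeR adjusted p 0.0272). Pool 8 lay below pool 2, and the sets overlapped as well. The log2 fold change was -0.038 (SE 0.0479, edgeR adjusted p 0.593) for Selplg, -0.11 (SE 0.0568, edgeR adjusted p 0.180) for Itga4 and -0.099 (SE 0.0481, edgeR adjusted p 0.156) for Itgb1, all negative and none called.

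These calls depended on single pools. Selp was no longer called without CVT pool 3 (adjusted p 0.0589), 5 (0.0530) or 6 (0.0538) in edgeR. By edgeR, Cd44 was not called without pool 2 (0.0649), 3 (0.0899), 4 (0.0736), 5 (0.0902), 6 (0.0674) or 7 (0.0776), nor was Cxcr4 without pool 3 (0.0794), 4 (0.0898), 5 (0.0906), 6 (0.0733) or 7 (0.0786). The number of genes called moved likewise, to 1424, 82, 354, 221, 266 and 754 without pools 2, 3, 4, 5, 6 and 7 and to 4510 without pool 8. The fold changes moved less, from 0.41 to 0.46 for Selp, from 0.21 to 0.32 for Cd44 and from 0.41 to 0.65 for Cxcr4.

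The make-up of the KL cells differed between the sets as well. Late granulocyte-like cells, of the 11 states the one with the most Cxcr4 and Cd44, made up 6.30, 2.94, 2.62 and 2.23% of the cells in pools 1 to 4 and 7.67, 7.81, 12.1 and 4.96% in pools 5 to 8, where SPF pool 1 lay above SPF pool 8 and the sets overlapped. Of the 12 markers of late granulocytes, 11 were called higher in pools 5 to 8 and none lower, none was at 0, the most abundant was S100a8, and their summed level was 23382, 9717, 9111 and 5855 CPM in pools 1 to 4 and 28011, 26159.8, 46504 and 17709 CPM in pools 5 to 8. SPF pool 7 was the highest and CVT pool 4 the lowest, and the sets overlapped through SPF pools 1 and 8. Leaving the late granulocyte-like cells out of the sums, a comparison added after the data were seen, gave log2 fold changes of 0.46 for Selp, 0.19 for Cd44 and 0.41 for Cxcr4 and left all 3 called (edgeR adjusted p 0.0118, 0.0384 and 0.0309). With RLE size factors, without these cells or without any single pool, the alternatives run for this comparison, the edgeR adjusted p ran from 0.00729 to 0.0589 for Selp, from 0.00144 to 0.0902 for Cd44 and from 0.000557 to 0.0906 for Cxcr4.

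Of the 12 LTHSC markers 8 were called higher and none lower, with Ifitm1 the most abundant and a summed level of 431, 581, 438 and 368 CPM in pools 1 to 4 and 557, 528, 634 and 802 CPM in pools 5 to 8. Of the 12 MPP markers 9 were called higher and none lower, with Cdk6 the most abundant and a summed level of 1347, 1438, 1218 and 1197 CPM in pools 1 to 4 and 1456, 1327, 1525 and 1484 CPM in pools 5 to 8. These are the states with the most Selp. MPP-like cells made up 3.76, 4.27, 2.41 and 3.04% of the cells in pools 1 to 4 and 5.34, 5.36, 5.47 and 5.93% in pools 5 to 8, a larger share in every pool of the later set, although this class was not found in 3 of the other clusterings. LTHSC-like cells made up 9.16, 10.0, 5.68 and 5.87% of the cells in pools 1 to 4 and 9.93, 9.27, 10.2 and 14.998% in pools 5 to 8, where CVT pool 6 lay under SPF pool 2 and the sets overlapped. Of the 12 early erythroid markers 7 were called lower and none higher, with Aqp1 the most abundant and a summed level of 603, 536, 640.0 and 590.0 CPM in pools 1 to 4 and 424, 462, 332 and 456 CPM in pools 5 to 8. Of the 13 committed erythroid markers 6 were called higher and 4 lower, with Car1 the most abundant, a median log2 fold change of -0.017 and a summed level of 1541, 1446, 1833 and 1658 CPM in pools 1 to 4 and 2599, 4649, 5303 and 3767 CPM in pools 5 to 8. Committed erythroid-like cells made up 8.95, 7.10, 11.5 and 11.7% of the cells in pools 1 to 4 and 6.36, 8.69, 3.29 and 6.66% in pools 5 to 8, so the sum was higher in every pool of the later set while the shares were mostly lower and overlapped, and SPF pool 7 had the highest sum and the lowest share. All 10 B cell markers were called higher, with Cd79b the most abundant and a summed level of 59.3, 57.5, 41.1 and 48.0 CPM in pools 1 to 4 and 89.5, 109, 123 and 104 CPM in pools 5 to 8. Of the 12 basophil or mast cell markers 7 were called higher and none lower, with Lmo4 the most abundant and a summed level of 258, 298, 229.7 and 263 CPM in pools 1 to 4 and 362, 295, 439.9 and 342 CPM in pools 5 to 8. Of the 8 T or NK markers tested 3 were called higher and none lower. Their class, with Nkg7 the most abundant, had 290, 317, 315 and 298 CPM in pools 1 to 4 and 351, 366, 414 and 351 CPM in pools 5 to 8. Of the 11 dendritic markers tested 4 were called higher and none lower. Their class, with Cst3 the most abundant, had 912, 896, 839 and 839 CPM in pools 1 to 4 and 955, 905, 1036 and 1021 CPM in pools 5 to 8, with overlap. None of these markers was at 0. The part that these cells had in the differences of Selp, Cd44 and Cxcr4 was not tested.

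Within 6 populations the sets were compared as well, a choice made after the data were seen. Among the members edgeR called 1, Selplg in GMP-like cells, where 5.28% of genes were called. Selplg had 123, 97.2, 102 and 106 CPM in pools 1 to 4 and 82.1, 85.4, 96.2 and 92.8 CPM in pools 5 to 8, a log2 fold change of -0.25 (SE 0.0671, edgeR adjusted p 0.0308). Every pool of the later set was below every pool of the earlier one, as held in either direction for 9.74% of 9934 genes, and SPF pool 1 was the highest. The 3 clusters of GMP-like cells differed in Selplg, with 129.8 CPM ± 16.1, 55.4 CPM ± 6.16 and 107 CPM ± 14.3 (SD, n = 8) in 1070, 982 and 858 cells, and they were looked at by set after the data were seen. The cluster of 1070 cells, with the most Selplg, made up 43.1, 42.2, 43.0 and 43.1% of the GMP-like cells in pools 1 to 4 and 28.3, 29.4, 23.7 and 31.4% in pools 5 to 8, a smaller share in every pool of the later set. Within each cluster the sets overlapped, with means of 139 CPM in pools 1 to 4 against 121 CPM in pools 5 to 8, 57.2 CPM in pools 1 to 4 against 53.5 CPM in pools 5 to 8 and 114 CPM in pools 1 to 4 against 101 CPM in pools 5 to 8 in the same order, and the part of the shift between clusters was not tested. In edgeR the call ended without pool 1 (adjusted p 0.0757), 3 (0.0827), 4 (0.109), 5 (0.128) or 6 (0.123), and its adjusted p ran from 0.0108 to 0.128 with RLE size factors or any single pool left out, the alternatives run here. Without pool 8 Cxcr4 was called (edgeR adjusted p 0.0263, range 0.0263 to 0.815). The 525 genes called fell to 236, 192, 212, 98 and 269 without pools 3, 4, 5, 6 and 7 and rose to 891 without pool 8.

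No member was called in LTHSC-like, LMPP-like, erythroid-like, monocyte-like or late granulocyte-like cells, where edgeR called 0.649%, 1.45%, 0.447%, 0.075% and 0.0725% of the genes tested, and 1241, 1804, 1872, 2038 and 360 genes had an unadjusted p under 0.05. In these and in GMP-like cells the log2 fold change lay between 0.14 (LMPP-like) and 0.58 (LTHSC-like) for Cxcr4 and between 0.11 (LMPP-like) and 0.44 (late granulocyte-like) for Cd44, positive in all 6. For Selp it was positive in LMPP-like (0.32) and GMP-like (0.18) and negative in LTHSC-like (-0.051) and monocyte-like cells (-0.29), and Selp could not be tested in the other 2 populations.

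Over the 11 states, all pools of the later set lay on 1 side of all pools of the earlier one in CPM for 8 of the 60 pairs of a member and a state with enough counts, beside 7.84% of the 97205 pairs of a gene and a state. Besides Selplg in GMP-like cells, the later set was below for Selplg and Itgb1 in committed erythroid-like, Itgb1 in basophil or mast-like and Itga4 in Mk-like cells, and above for Cxcr4 in committed erythroid-like and Cd44 in basophil or mast-like and late granulocyte-like cells. In the sums of both erythroid-like states, the form in which they were tested, and in late granulocyte-like cells no member was called.

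The members were set beside 99 other genes of adhesion and homing in 9 roles, of which 98 were in the table and 60 reached 20 CPM in a state. Of these 60, 14 were highest in late granulocyte-like, 12 in basophil or mast-like, 9 in Mk-like and 8 in LTHSC-like cells. Among selectins and their partners, Cd24a had 225 CPM ± 16.3 in KL cells (SD, n = 8) and Spn 102 CPM ± 4.81. The endothelial selectin gene Sele had 14 UMIs in all. Enzymes that build selectin ligands included Tpst2 (53.5 CPM ± 4.80) and St3gal4 (26.2 CPM ± 1.84), and Fut7 reached 109 CPM ± 16.2 in basophil or mast-like cells.

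Of the other integrin alpha chains, Itga2b (30.4 CPM ± 4.50 in KL cells) and Itga6 (21.9 CPM ± 3.07) had the highest levels and reached 252 CPM ± 23.6 in Mk-like cells and 59.3 CPM ± 15.5 in the same cells. Of the other beta chains, these were Itgb2 (20.8 CPM ± 9.26) and Itgb7 (18.6 CPM ± 3.51). Itgb7, whose product can also pair with that of Itga4, reached 70.7 CPM ± 11.5 in basophil or mast-like cells, the state with the most Itga4. Activators of integrins were led by Rap1a (172 CPM ± 9.81) and Tln1 (169 CPM ± 8.07), and the integrin ligands and other adhesion molecules by Cd47 (517 CPM ± 17.8) and Icam2 (67.6 CPM ± 4.90). Vcam1, a ligand of VLA-4, had 2.18 CPM ± 0.661 and reached 21.6 CPM ± 7.21 in late granulocyte-like cells.

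Receptors of migration were led by S1pr4 (41.2 CPM ± 3.88) and Cx3cr1 (11.6 CPM ± 1.62). Ackr3, the other receptor of CXCL12, had 1 UMI. Mif (1024 CPM ± 64.7) and Rgs2 (89.7 CPM ± 13.2) led the ligands and regulators of Cxcr4.

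For housing, none of 83 listed genes tested in KL cells was called by edgeR, and 5 had an unadjusted p under 0.05. The median log2 fold change of the 83 was -0.075 beside -0.012 for all 13092 genes, both with TMM scaling. In LTHSC-like, LMPP-like, GMP-like and erythroid-like cells 60, 69, 68 and 61 were tested, none was called, 5, 2, 3 and 9 had an unadjusted p under 0.05, and the medians were 0.014, 0.020, 0.020 and -0.079. For all genes tested there by edgeR, the medians were 0.0030, 0.00087, -0.0016 and -0.0034. An unadjusted p under 0.05 was found for 493 of 9404, 552 of 10490, 501 of 9934 and 754 of 10952 genes. DESeq2 called 0 of the listed genes in KL cells and 0, 0, 0 and 0 in these 4 populations.

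Between the pool sets in KL cells, 23 of the 83 were called higher in pools 5 to 8 and 1 lower, Fermt3 (-0.15 on the log2 scale), while 20.2% of all genes were called in either direction and 10.5% higher. These edgeR calls depended on single pools, as the number of all genes called moved to 82 without pool 3 and to 4510 without pool 8. The median was 0.15 beside 0.0100 for all genes. The higher ones in the integrin roles were Itga6 (0.31), Itgal (0.56), Itgam (0.98), Itgax (1.05), Itgb2 (0.80), Itgb3 (0.85), Pxn (0.22), Ptk2b (0.22) and Zyx (0.29). Among ligands and other adhesion molecules they were Vcam1 (0.73), Fn1 (1.93), Jam3 (0.99), F11r (0.67) and Alcam (0.41). Receptors of migration gave Cxcr2 (0.95), Cxcr3 (1.5004) and Ccr1 (1.26), and regulators of Cxcr4 gave Mmp9 (1.91), Arrb2 (0.38) and Cd74 (1.27). Of these, Itgal, Itgam, Itgb2, Pxn, Vcam1, Cxcr2, Ccr1, Mmp9 and Arrb2 were highest in late granulocyte-like cells. Jam3, F11r, Alcam and Ptk2b were highest in LTHSC-like, and Itga6, Itgb3 and Zyx in Mk-like cells. Fn1 and Cd74 were highest in monocyte-like, and Itgax and Cxcr3 in LMPP-like cells. Jam3, Itgax and Cxcr3 did not reach 20 CPM in any state. The part of any of these states in the differences was not tested.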

How the data were processed

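The deposited table holds counts made by the authors with Cell Ranger from Chromium 3′ v2 libraries of 8 pools: UMI counts per gene and cell, without normalization. The version was not stated, the processing notes name mm9, and filters on cells were not given. All 29891 cells were used. The 6 members, the adhesion list and the markers were chosen with earlier results of these data known, and the rule for naming clusters was settled after the clusters were seen.

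For clustering, the counts of a cell were brought to a sum of 10000 and their logarithm was taken. The 1000 most variable genes (20 bins, a UMI in at least 10 cells, without the 6 members and the adhesion list) gave 30 principal components and a shared graph of 30 neighbours, clustered by the Leiden method at resolution 2 with seed 1 (leidenalg 0.10.2 and igraph 0.11.9, with scikit-learn 1.9.0, scipy 1.17.1, numpy 2.4.6 and pandas 2.3.3 under Python 3.11.15). A cluster took the class with most markers among its 10 leading genes, ties going to the class with most among its 100 most specific genes, of which at least 3 were needed. For shares, each cell was thinned to 2759 UMIs, and intervals cover counting error only. The precision of a level is its SD over pools, which held between 19041749 and 59812346 UMIs.

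UMI sums per pool and population, from pools with at least 20 cells, went into edgeR 4.0.16 (quasi-likelihood fit by glmQLFit, test by glmQLFTest, TMM, filterByExpr, Benjamini-Hochberg over all genes tested, threshold 0.05) in R 4.3.3, with limma 3.58.1 loaded by edgeR. The comparisons were CVT against SPF, pools 5 to 8 against pools 1 to 4 with housing in the fit, and their interaction. The standard error is the fold change divided by the root of the F statistic. The fit was tested on simulated data, whose outcome is not given here and is not drawn on for any result. Genes were named from the 6 members, the 3 genes most like each of them over the states, the listed adhesion genes past the threshold in a test, and those with the highest KL level in a role. Sele and Ackr3 were chosen after their values were seen.

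The alternatives were DESeq2 1.42.0, scaling by RLE, keeping genes with low counts, a block for the pool sets, each pool left out, doublets called by Scrublet (scanpy 1.11.5) removed, late granulocyte-like cells left out, resolution 1, the adhesion genes kept for clustering, means over cells, and all UMIs for shares. Of these, RLE scaling, left-out pools and, in KL cells, late granulocyte-like cells left out were run for the pool sets. Scrublet called 92 cells (0.308%), so the 5% of cells with the highest scores in each pool were also removed, an alternative chosen after seeing the data. Promoter windows came from RefSeq (GRCm38.p6). Figures were drawn with matplotlib 3.10.9.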

Additional observations from a re-analysis of the deposited data

Results flagged for a closer look

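In each of 144 groups of 4 pools (6 genes, 11 states and KL cells, CVT or SPF), the pool farthest from the others was compared with Dixon's 95% critical value, and 9 groups had a pool beyond it. Chance alone sets apart about 5% of such groups, and none of these pools was left out of the results. SPF pool 7 stood apart in 4 of them. Its Cxcr4 level was 27.5 CPM while the other 3 lay between 18.5 and 19.3 CPM in KL cells, and 15.2 CPM while the other 3 lay between 10.5 and 10.7 CPM in LTHSC-like cells. In the same pool Cd44 had 59.2 CPM while the other 3 lay between 45.6 and 47.7 CPM in early erythroid-like cells, and Selplg had 97.0 CPM while the other 3 lay between 48.6 and 56.6 CPM in CMP-like cells, of which this pool held 19.

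SPF pool 1 stood apart in 3. Selplg had 123 CPM while the other 3 lay between 92.8 and 97.2 CPM in GMP-like cells, Selp had 4.66 CPM while the other 3 lay between 1.71 and 2.19 CPM in monocyte-like cells, and Cxcr4 had 11.6 CPM while the other 3 lay between 21.0 and 22.7 CPM in MPP-like cells. SPF pools 1 and 7 were also those with the fewest cells and UMIs, and the part of depth was not tested. CVT pool 4 stood apart in the other 2, with Cd44 at 55.9 CPM while the other 3 lay between 66.3 and 68.1 CPM in MPP-like cells and Itga4 at 91.8 CPM while the other 3 lay between 74.8 and 77.3 CPM in LMPP-like cells. Housing and pool set showed no interaction past an edgeR adjusted p of 0.05 for any of the 6 genes in KL cells.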

How the results depend on the processing

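Of 180 housing fold changes under alternatives other than leaving out a pool, 171 kept their direction, all on the same side of the threshold. The cause of the changes was not tested. Cxcr4 in KL cells reversed to 0.00050 with RLE size factors, 0.00042 with DESeq2 and 0.032 without late granulocyte-like cells. Without a filter on low counts, Selplg in LMPP-like cells reversed to 0.0016 and Cd44 in GMP-like cells to 0.0072. With Scrublet's doublets removed and a new clustering, Selp in GMP-like cells reversed to -0.40. With the top doublet scores removed, the alternative chosen after seeing the data, it was -0.075, and in LMPP-like cells Selplg was 0.00038 and Itga4 -0.0031. The number of genes called for housing rose from 0 to 15 (KL), 2 (LMPP-like) and 2 (erythroid-like) with DESeq2, to 4 (KL), 4 (LMPP-like) and 2 (GMP-like) with a block for the pool sets, and to 40 (LTHSC-like), 32 (LMPP-like), 35 (GMP-like) and 1 (erythroid-like) without a filter. Leaving out 1 pool kept the direction of 195 of 232 housing fold changes. Where it did not, the ranges in KL cells were -0.074 to 0.13 for Selp, -0.11 to 0.049 for Cd44, -0.053 to 0.020 for Itgb1 and -0.15 to 0.16 for Cxcr4. In LTHSC-like cells they were -0.016 to 0.097 for Selplg, -0.045 to 0.17 for Cd44 and -0.040 to 0.29 for Cxcr4, with 0 to 1 genes called. In LMPP-like cells they were -0.053 to 0.050 for Selplg, -0.029 to 0.12 for Itga4, -0.078 to 0.0098 for Itgb1 and -0.035 to 0.14 for Cxcr4, with 0 to 1 called. In GMP-like cells they were -0.0036 to 0.14 for Selp, -0.11 to 0.022 for Selplg, -0.052 to 0.038 for Cd44, -0.059 to 0.026 for Itga4 and -0.27 to 0.064 for Cxcr4, with 0 to 5 called, and in erythroid-like cells -0.076 to 0.31 for Cxcr4. Between the pool sets, where leaving out late granulocyte-like cells and all alternatives in GMP-like cells were chosen after seeing the data, 18 of 18 fold changes under the other alternatives run (RLE size factors, and in KL cells late granulocyte-like cells left out) and 75 of 96 with 1 pool left out kept direction and side, 19 lost their call, 1 gained one and 1 reversed. The ranges were 0.41 to 0.46 for Selp, 0.21 to 0.32 for Cd44 and 0.41 to 0.65 for Cxcr4 in KL cells, with 82 to 4510 genes called, and -0.31 to -0.21 for Selplg, -0.10 to 0.018 for Itgb1 and 0.079 to 0.45 for Cxcr4 in GMP-like cells, with 98 to 891 called. Levels moved by less than 1 SD over pools in 273 of 306 values under alternatives other than leaving out a pool. Of the highest level of each gene, those that moved were Itgb1 in Mk-like cells (77.9 CPM) and Selplg in monocyte-like cells (203 CPM) at resolution 1, and Itga4 in basophil or mast-like cells (249 CPM) as a mean over cells. No MPP-like class was found at resolution 1, with the adhesion genes kept or with Scrublet's doublets removed, and no CMP-like class at resolution 1, so these gave no levels. With the adhesion genes kept, the CMP-like class was a cluster of 1824 cells led by Gm15915, beside 477 cells led by Pf4 in the main clustering. With Scrublet's doublets removed, it included clusters of 2750 and 1080 cells. All 66 shares moved when all UMIs were used, as deeper cells hold more of them. Limits remain. Selp had 10 to 34 UMIs in all in CMP-like, both erythroid-like, basophil or mast-like and late granulocyte-like cells. Mice were pooled, and states rest on marker lists. Transcripts of surface proteins do not give their amount on the cell.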
